A study of Homo sapiens with 16 samples.

Results

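MHC class I antigen presentation was described through 9 genes: HLA-B, HLA-C and HLA-E, which encode class I heavy chains, B2M, TAP1, TAP2, PSMB8, PSMB9 and NLRC5. They were taken by symbol from the deposited table of counts, where each symbol matched 1 row, and so make up 9 of 57500 genes. All 9 passed the filter on low counts and stand among the 15566 genes tested. RNA sequencing was done on MDA-MB-231, a human triple-negative breast cancer line of mesenchymal character, with an inducible short hairpin RNA. The first line carries a hairpin against AKAP2 (shAKAP2), given doxycycline (dox), the drug that turns the hairpin promoter on, in 4 libraries and no dox in 4. The second carries a scrambled hairpin (shScramble), again with dox in 4 libraries and without it in 4. AKAP2 encodes a scaffold that anchors protein kinase A, and the series concerns its part at focal adhesions and in growth and spread of this cancer. The 4 libraries of a group are named biological replicates, and since nothing says that they are separate cultures, p-values measure the spread between libraries. The labels do not state the dose or duration of dox, the hairpin's sequence or whether a line was grown from 1 clone, and none of the 4 groups is the unmodified parent line.

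Class I molecules show peptides from inside the cell to CD8 T cells. The proteasome cuts proteins into peptides, and under interferon the subunits PSMB8 and PSMB9 replace the constitutive catalytic subunits PSMB5 and PSMB6 to form the immunoproteasome. The transporter TAP1/TAP2 moves the peptides into the endoplasmic reticulum, where they are loaded on a heavy chain paired with beta-2-microglobulin, the product of B2M. NLRC5 is a transactivator that works with the RFX, CREB/ATF and NF-Y factors at the SXY module of class I promoters, and loss of class I in tumours is known as a way to evade T cells.

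Positions are from GENCODE release 29 on GRCh38. HLA-E (ENSG00000204592) lies at chr6:30489467-30494205 on the plus strand. HLA-C (ENSG00000204525) lies at chr6:31268749-31272130 on the minus strand, and HLA-B (ENSG00000234745) is annotated at chr6:31269491-31357188 on the minus strand, a span that runs over HLA-C. Further along the same chromosome TAP2 (ENSG00000204267) lies at chr6:32821833-32838780, PSMB8 (ENSG00000204264) at chr6:32840717-32844703 and TAP1 (ENSG00000168394) at chr6:32845209-32853978, all on the minus strand, with PSMB9 (ENSG00000240065) at chr6:32844136-32859585 on the plus strand. B2M (ENSG00000166710) is at chr15:44711487-44718877 and NLRC5 (ENSG00000140853) at chr16:56989485-57083531, both on the plus strand.

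Promoters are shown for HLA-B, HLA-C, B2M and the TAP1 and PSMB9 pair, because these genes share motifs or a neighbouring start site and can be set beside their counts. The windows run from 250 bases before to 50 bases after a RefSeq start on GRCh38.p14, 5′ to 3′ on the gene's strand, and 7 of the 9 genes matched an entry, all but HLA-E and NLRC5. Capitals mark letters that a search on both strands found. The motifs searched were GAAANNGAAA, written as interferon-stimulated elements often are, TTCNNNGAA, the STAT form, ATTGG, the NF-Y box, TGACGC, a form of the CREB/ATF half-site, and GGGATTCCC, an NF-kB form.
HLA-B (chr6:31357130-31357429, minus strand): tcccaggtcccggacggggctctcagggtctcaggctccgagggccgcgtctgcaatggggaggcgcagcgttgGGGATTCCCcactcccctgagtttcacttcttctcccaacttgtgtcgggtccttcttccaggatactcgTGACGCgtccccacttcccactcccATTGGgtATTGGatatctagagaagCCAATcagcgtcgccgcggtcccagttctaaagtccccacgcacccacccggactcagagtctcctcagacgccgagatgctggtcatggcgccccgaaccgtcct
HLA-C (chr6:31272043-31272342, minus strand): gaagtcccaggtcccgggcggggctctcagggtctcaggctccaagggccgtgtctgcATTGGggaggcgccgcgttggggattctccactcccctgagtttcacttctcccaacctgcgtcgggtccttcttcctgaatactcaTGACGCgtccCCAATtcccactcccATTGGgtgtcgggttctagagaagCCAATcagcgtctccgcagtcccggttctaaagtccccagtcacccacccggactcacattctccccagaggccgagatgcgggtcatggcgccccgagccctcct
B2M (chr15:44711267-44711566, plus strand): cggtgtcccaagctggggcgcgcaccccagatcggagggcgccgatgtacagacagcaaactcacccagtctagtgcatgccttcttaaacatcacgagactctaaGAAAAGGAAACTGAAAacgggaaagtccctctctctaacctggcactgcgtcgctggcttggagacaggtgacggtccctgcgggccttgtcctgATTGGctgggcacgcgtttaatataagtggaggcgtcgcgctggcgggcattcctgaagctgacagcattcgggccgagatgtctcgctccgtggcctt
TAP1 (chr6:32853655-32853954, minus strand): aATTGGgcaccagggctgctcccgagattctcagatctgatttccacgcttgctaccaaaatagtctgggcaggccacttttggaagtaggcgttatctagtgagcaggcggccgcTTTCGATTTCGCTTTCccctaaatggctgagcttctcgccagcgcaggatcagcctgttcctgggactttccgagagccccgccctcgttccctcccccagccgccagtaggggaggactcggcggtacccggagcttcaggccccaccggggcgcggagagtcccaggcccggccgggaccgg
PSMB9 (chr6:32853942-32854241, plus strand): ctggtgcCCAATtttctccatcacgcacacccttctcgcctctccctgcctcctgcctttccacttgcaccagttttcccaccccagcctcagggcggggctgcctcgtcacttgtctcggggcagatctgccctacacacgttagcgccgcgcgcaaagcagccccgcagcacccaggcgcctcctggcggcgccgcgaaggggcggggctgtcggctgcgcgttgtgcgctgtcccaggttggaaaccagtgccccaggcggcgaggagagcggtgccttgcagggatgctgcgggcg

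HLA-B, HLA-C and TAP2 each hold 1 TGACGC, which 9.14% of 35116 promoters in the table hold, and HLA-B and HLA-C hold several ATTGG boxes, which 34.6% hold. HLA-B also holds GGGATTCCC, found in 0.384% of promoters. B2M and TAP1 each hold GAAANNGAAA as 2 overlapping copies, in TAP1 on the opposite strand, and this motif stands in 3.57% of promoters. TAP2 and a second PSMB8 window hold GAAANNGAAA once, and that PSMB8 window and a second TAP1 window also hold TTCNNNGAA, found in 7.66%. TAP1 and PSMB9 point away from each other, their starts lie 488 bases apart and the printed windows share 13 bases, which include the only motif found in the PSMB9 window, an ATTGG box. A match describes letters in a window and is no evidence of a bound factor.

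Across the 16 libraries total counts ran from 24482997 to 37472525. The hairpin's target, AKAP2, had 3, 0, 1 and 0 counts in shAKAP2 cells with dox, against 42, 36, 37 and 53 without dox; shScramble cells had 22, 47, 56 and 87 counts with dox and 55, 26, 29 and 34 without it. AKAP2 shares 85.8% of its exonic bases with PALM2-AKAP2, so these counts may cover part of the locus only. The 6 markers of a mesenchymal breast cancer line were found in every library, with VIM at 1518 ± 67.2 CPM in shAKAP2 cells with dox (SD, n = 4). The labels call the cells epithelial; the luminal keratins KRT8 and KRT18 were present, while ESR1, PGR, FOXA1 and CDH1 stayed at or near 0. Of 13 leukocyte markers, MS4A1 had no count in any library and CD3E had 1. Their summed level, most of it LAPTM5, was 47.0 to 64.5 CPM in shAKAP2 cells with dox, 71.5 to 81.7 without dox, 132 to 182 in shScramble cells with dox and 81.7 to 102 without dox. The 8 fibroblast markers summed to 14.2 to 16.3, 13.4 to 20.1, 22.2 to 29.3 and 12.9 to 19.4 CPM in the same groups. The 8 luminal markers summed to 1080.05 to 1208, 903 to 929, 915 to 1257 and 818 to 1065 CPM, and the 6 mesenchymal markers to 5951 to 6180.1, 6684 to 7024, 5718 to 6606 and 5859 to 6065 CPM, again in that order of groups. The share of mitochondrial counts was 1.02% to 2.04%, 1.86% to 2.38%, 2.20% to 3.02% and 2.41% to 3.62%. At an adjusted p under 0.05, edgeR called 5 of 9 tested leukocyte markers higher with dox in shScramble cells and none lower. Of all tested genes 0.559% were called higher there and 0.52% lower. For the difference between the lines' dox effects 7 leukocyte markers were lower and none higher, beside 10.5% and 7.53%. There 3 of 6 tested fibroblast markers were lower. Without dox 6 leukocyte markers were higher in shAKAP2 than in shScramble cells and 1 lower, beside 8.65% and 9.31%. The part that these lists and the mitochondrial share play in any result was not tested. Replicate 1 of shScramble stood apart in both conditions, and each comparison of the 9 genes that uses shScramble is given with and without those libraries.

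Levels are in CPM, counts divided by library sizes that were scaled by the trimmed mean of M values. To set genes side by side, CPM were also divided by the length of all annotated exons of a gene together. HLA-B and B2M then stood highest in uninduced shAKAP2 cells, at 149 ± 11.7 and 129.7 ± 2.71 CPM per kb. HLA-C came next at 104 ± 3.48 and HLA-E at 89.4 ± 3.64. PSMB8 followed at 21.4 ± 0.494, TAP2 at 16.2 ± 0.557 and TAP1 at 14.7 ± 0.454 CPM per kb. PSMB9 stood at 4.55 ± 0.329 and NLRC5 lowest, at 1.38 ± 0.0844 CPM per kb (SD, n = 4 each). The values of HLA-C and HLA-E, and those of TAP2 and TAP1, lie close together within each pair. In induced shAKAP2 cells HLA-B and B2M lay within each other's spread, at 125 ± 11.95 and 123 ± 7.34 CPM per kb. Before division by length they averaged 382 and 747 CPM there. The length used was 3051 bases for HLA-B and 6079 for B2M, and it can exceed that of the transcripts present. The order of the genes per kilobase therefore depends on the length used and is uncertain. HLA genes are highly variable between people and similar to each other, and reads were counted on 1 reference genome, so the levels of HLA-B, HLA-C and HLA-E are uncertain.

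The heavy chains were lowest in shAKAP2 cells with dox and highest in shScramble cells with dox. HLA-B had 328, 394, 400.3 and 407 CPM in shAKAP2 cells with dox, against 488, 472, 406 and 453 CPM without dox. In shScramble cells HLA-B had 1405, 830.2, 663 and 707 CPM with dox, against 1265, 659, 532 and 498 CPM without dox. The induced and uninduced shAKAP2 libraries overlap narrowly, all 8 lie below every shScramble library, and replicate 1 of shScramble is by far the highest in each condition. HLA-C showed the same order: 210.3 to 253 CPM in shAKAP2 cells with dox against 249.7 to 270.2 without dox, and 347 to 668 CPM in shScramble cells with dox against 275 to 596 without dox. HLA-E, whose product binds leader peptides of other class I chains and is read by NK cells, had 203, 229.6, 225 and 217 CPM in shAKAP2 cells with dox, against 278, 268, 252 and 267 CPM without dox. Here the induced and uninduced shAKAP2 libraries do not overlap. In shScramble cells HLA-E ran from 302 to 544 CPM with dox and from 290.1 to 525 CPM without dox.

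B2M, the invariant light chain, had 681, 779.7, 766 and 761 CPM in shAKAP2 cells with dox, against 796, 803, 765 and 792 CPM without dox. In shScramble cells B2M had 1935, 1193, 955 and 926 CPM with dox, against 1574, 1081, 949.9 and 995 CPM without dox. The shAKAP2 groups overlap each other and both lie below every shScramble library.

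The transporter subunits did not behave alike between the lines. TAP1 had 70.7, 68.6, 74.3 and 67.8 CPM in shAKAP2 cells with dox, against 71.7, 69.2, 68.8 and 73.4 CPM without dox. In shScramble cells TAP1 had 142, 101, 96.6 and 87.6 CPM with dox, against 116, 101, 93.7 and 82.3 CPM without dox. TAP1 was thus level within the shAKAP2 line and lower there than in any shScramble library. TAP2 ranged from 97.0 to 111 CPM in shAKAP2 cells with dox, against 99.6 to 107 CPM without dox, and from 66.6 to 109.7 CPM in shScramble cells with dox, against 74.5 to 102 CPM without dox. The TAP2 ranges of all 4 groups overlap, and the lowest TAP2 values are those of shScramble replicate 1, the library in which the heavy chains, B2M and TAP1 are highest.

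Of the immunoproteasome subunits, PSMB8 had 52.9, 60.9, 60.9 and 61.2 CPM in shAKAP2 cells with dox, against 65.9, 62.3, 64.1 and 63.7 CPM without dox. In shScramble cells PSMB8 had 127, 91.8, 91.8 and 81.7 CPM with dox, against 105, 90.3, 97.3 and 85.3 CPM without dox. The shAKAP2 groups are separated by a narrow gap and lie below every shScramble library. PSMB9 had 7.70, 10.3, 10.98 and 9.77 CPM in shAKAP2 cells with dox, against 13.4, 14.5, 12.9 and 15.1 CPM without dox. In shScramble cells PSMB9 had 35.2, 23.8, 23.6 and 21.1 CPM with dox, against 30.5, 26.2, 24.5 and 21.2 CPM without dox. PSMB9 is the member with the clearest steps, induced shAKAP2 below uninduced shAKAP2 below all shScramble libraries.

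NLRC5 had 13.1, 9.64, 12.3 and 13.8 CPM in shAKAP2 cells with dox, against 17.6, 15.5, 17.3 and 17.8 CPM without dox. In shScramble cells NLRC5 had 17.9, 16.6, 17.3 and 20.7 CPM with dox, against 16.1, 19.0, 18.6 and 14.3 CPM without dox. The induced shAKAP2 libraries lie below all 12 others, and those 12 overlap. NLRC5 is also the member on which shScramble replicate 1 does not stand apart.

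**Figure D1:**
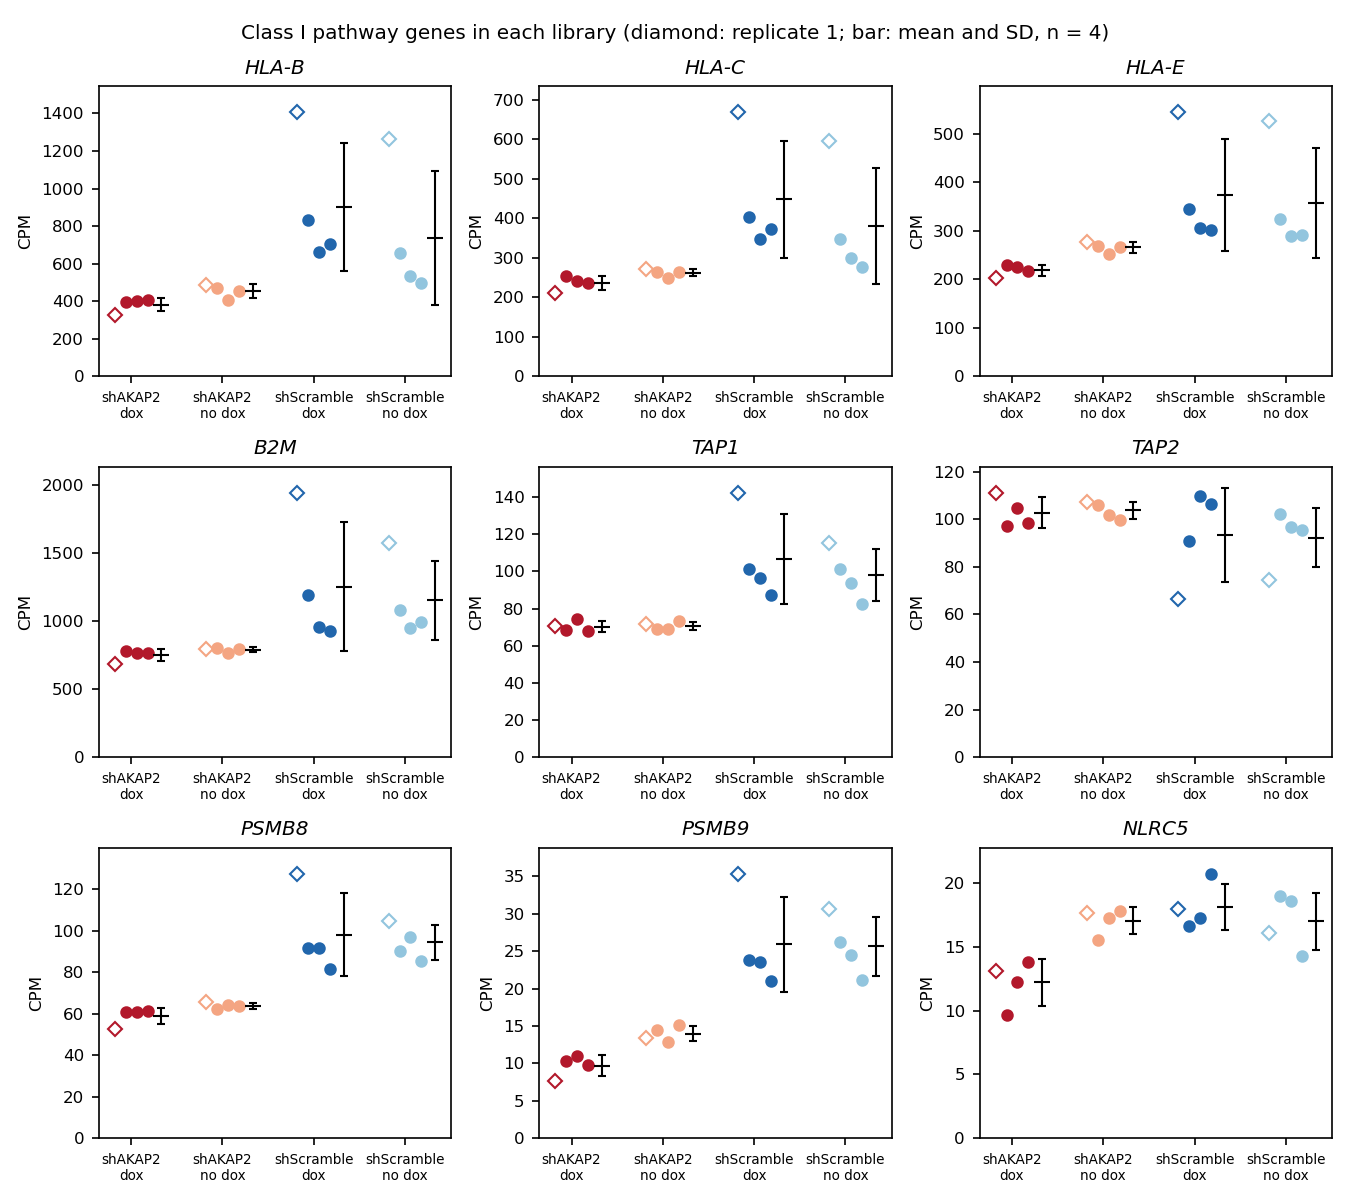
Level of each of the 9 genes in CPM (vertical axis, from 0) in the 4 groups; points are libraries, diamonds replicate 1, and bars the mean and SD of 4 libraries. Replicate 1 of shScramble is highest for HLA-B at 1405 and 1265 CPM and lowest for TAP2, while NLRC5 is low in induced shAKAP2 cells alone, at 9.64 to 13.8 CPM.

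Dox was compared with no dox in the shAKAP2 line, to see what moved when the AKAP2 hairpin was switched on. PSMB9 fell to 0.69 of its uninduced level (log2 fold change -0.53, SE 0.152, adjusted p = 0.0120) and NLRC5 to 0.72 of it (log2 fold change -0.48, SE 0.120, adjusted p = 0.00448), each lower in 4 of 4 libraries than in any uninduced one. These adjusted p-values are from edgeR's quasi-likelihood test with Benjamini-Hochberg adjustment over all genes tested, as are all others given for a gene, and a gene was called under 0.05. No member was higher and 2 of 9 were lower, beside 13.1% of all tested genes called higher and 15.2% called lower, so the count of calls does not set the members apart from other genes. All 9 estimates were below 0, with a median log2 fold change of -0.16 against 0.0016 over all genes, and 4 of 9 members lay lower with no overlap between the groups, as did 18.1% of all tested genes. HLA-E had a log2 fold change of -0.28 (SE 0.197, adjusted p = 0.320) and PSMB8 one of -0.12 (SE 0.104, adjusted p = 0.442). For the other members the estimates were -0.25 for HLA-B, -0.16 for HLA-C, -0.08 for B2M and -0.01 for both TAP1 and TAP2, with adjusted p-values from 0.567 to 0.968. The 95% intervals exclude a change as large as that of PSMB9 for TAP1 (-0.27 to 0.25) and TAP2 (-0.27 to 0.25), but not for HLA-B (-0.88 to 0.38).

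The fit shares its estimate of spread among all 4 groups, and the heavy chains spread widest in the shScramble groups, where replicate 1 is high. With only the 8 shAKAP2 libraries in the fit, 5 members were lower, HLA-B (adjusted p = 0.0186), HLA-C (adjusted p = 0.00987) and HLA-E (adjusted p = 7.57e-06) in addition, at almost the same fold changes. Calls rose for genes in general in that fit, with 21.9% of all tested genes called lower. Without both shScramble replicate 1 libraries HLA-E was called as well (log2 fold change -0.29, adjusted p = 2.74e-05). There too calls rose for genes in general, with 20.1% of all tested genes called lower. Induced HLA-E averaged 219 ± 11.9 CPM and uninduced 266 ± 10.8 CPM (SD, n = 4 each). In the induced shAKAP2 libraries the summed leukocyte and mesenchymal markers were also lower, and the luminal markers higher, than in any uninduced one, and the mitochondrial share was lower with some overlap. Their part in the fall of PSMB9 and NLRC5 was not tested. GAACACA, a 7-base word searched for in 3′ untranslated regions, stood in those of 36.6% of genes called lower by the main fit. It stood in 8.29% of genes called higher and 14.1% of those not called. Among the members TAP2 alone holds it, and the hairpin's target AKAP2 holds it too. Of other genes named below as lower, CIITA, IRF1, UGGT1 and REL hold it, and PSMB10, RFX5, NFYA, ERAP2, TPP2, IKBKB and SOCS1 do not. The shares were not adjusted for the length of the untranslated regions. No source for the word is given, and if it was picked from these same data the shares cannot serve as a test. The part of the word in any result was not tested.

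With the scrambled hairpin no member passed the test for dox against no dox, where 0.559% of all tested genes were called higher and 0.52% lower. The 9 estimates were all above 0, with a median log2 fold change of 0.09, from 0.01 for PSMB9 to 0.29 for HLA-B, and every member's groups overlapped. The adjusted p-values of the members ran from 0.849 to 0.992 in edgeR, none had an unadjusted p under 0.05, and DESeq2 and limma-voom called no member either. Without the replicate 1 libraries HLA-C was called higher (log2 fold change 0.29, adjusted p = 0.0181), HLA-B had 0.39 and was not called, and the estimates of PSMB8 and PSMB9 were below 0, while the number of all genes called was 1002 in place of 168.

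The difference between the lines' dox effects, shAKAP2 minus shScramble, was tested as an interaction. NLRC5 passed (difference of log2 fold changes -0.58, SE 0.168, adjusted p = 0.0211), and PSMB9 had almost the same estimate and did not (-0.54, SE 0.209, adjusted p = 0.0803). No member was higher and 1 of 9 was lower, beside 7.53% of all tested genes called higher and 10.5% called lower. All 9 estimates were below 0, with a median of -0.35. When replicate 4 of shScramble with dox, the highest NLRC5 library, was left out, NLRC5 lost the call (-0.51, adjusted p = 0.0522) and PSMB9 passed (-0.63, adjusted p = 0.0455), so that the 1 member called was a different gene. Without both shScramble replicate 1 libraries 5 members were lower, namely HLA-B (-0.64, adjusted p = 0.0122), HLA-C (-0.45, adjusted p = 0.000967), HLA-E (-0.36, adjusted p = 0.000461), PSMB9 (-0.46, adjusted p = 0.0259) and NLRC5 (-0.57, adjusted p = 0.0112), and 16.3% of all tested genes were called lower. Leaving out only replicate 1 of shScramble without dox gave 3 members lower, beside 12.8% of all tested genes called lower. The number of members called therefore depends on the replicate 1 libraries.

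**Figure D2:**
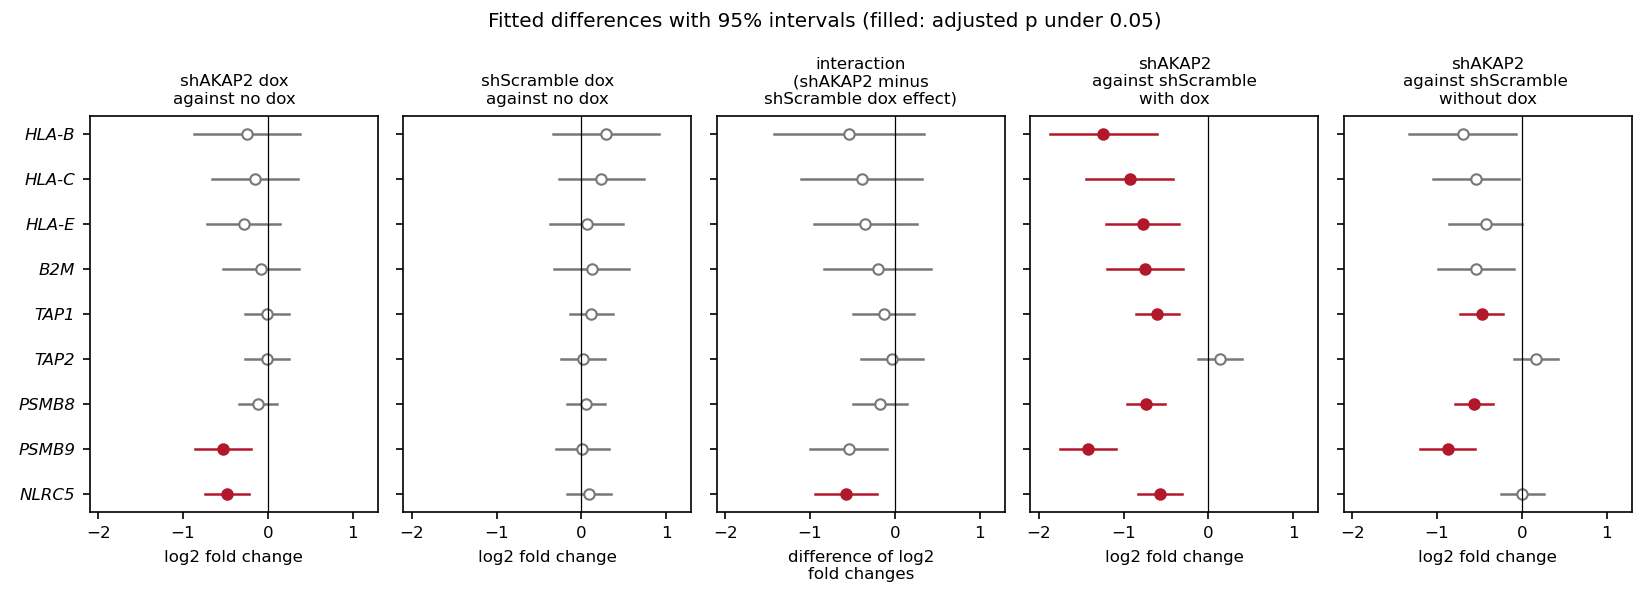
Fitted differences for each of the 9 genes on the log2 scale (horizontal axis) in the 5 comparisons, with 95% intervals; filled points have an adjusted p under 0.05. The filled points are PSMB9 and NLRC5 for dox in shAKAP2 cells, NLRC5 for the interaction, 8 members with dox between the lines and 3 without dox.

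Between the lines, the class I genes were lower in shAKAP2 than in shScramble cells, in the presence of dox for all members but TAP2. This comparison uses the same induced shAKAP2 libraries as that of dox against no dox, and the values of each are given on their own. With dox PSMB9 differed most, at 0.37 of the shScramble level (log2 fold change -1.42, SE 0.151, adjusted p = 3.23e-07), followed by HLA-B at 0.42 of it (log2 fold change -1.24, SE 0.291, adjusted p = 0.00408). HLA-C had a log2 fold change of -0.93, HLA-E of -0.78, B2M of -0.75, PSMB8 of -0.73, TAP1 of -0.60 and NLRC5 of -0.57, with adjusted p-values from 1.19e-05 to 0.00985. TAP2 had a log2 fold change of 0.14 (SE 0.120, adjusted p = 0.398; 95% interval -0.13 to 0.40). Thus 8 of 9 members were lower and none higher, beside 21.5% of all tested genes called lower and 18.7% called higher, and the members' median was -0.75 against -0.01 over all genes. In all 8 the groups did not overlap, a pattern found with the same direction in 19.6% of all tested genes. Without the replicate 1 libraries each of these 8 was again called lower, at -0.94 for HLA-B, -0.67 for HLA-C, -0.54 for HLA-E, -0.46 for B2M, -0.44 for TAP1, -0.59 for PSMB8, -1.24 for PSMB9 and -0.58 for NLRC5. In that fit 22.4% of all tested genes were called lower.

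A difference between the lines was also present where the hairpin was not induced. Without dox PSMB9 (log2 fold change -0.87, SE 0.147, adjusted p = 0.000467), PSMB8 (-0.56, SE 0.104, adjusted p = 0.00108) and TAP1 (-0.47, SE 0.117, adjusted p = 0.00958) were lower in shAKAP2 than in shScramble cells. No member was higher and 3 of 9 were lower, beside 8.65% and 9.31% of all tested genes. HLA-B had -0.70 (adjusted p = 0.112), HLA-C -0.54 (adjusted p = 0.127), HLA-E -0.43 (adjusted p = 0.150) and B2M -0.54 (adjusted p = 0.0813), with every shAKAP2 library below every shScramble library, as in 7 of 9 members and 12.2% of all tested genes. NLRC5 had a log2 fold change of 0.01 (SE 0.118, 95% interval -0.25 to 0.26) and TAP2 one of 0.17 (SE 0.120, 95% interval -0.09 to 0.43). Without replicate 1 of shScramble 6 members were lower, with B2M at -0.35, HLA-C at -0.23 and HLA-E at -0.18 in addition, while HLA-B stood at -0.30 (adjusted p = 0.0784), and 12.9% of all tested genes were called lower. In bulk RNA fewer cells that express a gene and less RNA per cell cannot be told apart.

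Ratios within a library do not depend on how libraries are scaled. PSMB8 over PSMB5, the constitutive subunit it replaces, had a log2 ratio of -1.15 ± 0.0510 in shAKAP2 cells with dox, against -0.85 ± 0.0391 without dox (SD, n = 4 each). PSMB9 over PSMB6 had -3.90 ± 0.166 with dox, against -3.43 ± 0.138 without dox. The summed heavy chains over B2M had 0.16 ± 0.0267 with dox, against 0.32 ± 0.0558 without dox. The differences were -0.30, -0.46 and -0.15, and in each ratio all 4 induced libraries lay below all 4 uninduced ones. A two-sided exact permutation test over libraries gave p = 0.0286 for each, the smallest that 4 against 4 allows, and 0.0429 after Benjamini-Hochberg adjustment over 12 tests. PSMB5 itself averaged 131 ± 12.2 CPM with dox and 116 ± 4.31 CPM without dox, and PSMB6 143 ± 5.64 CPM with dox and 151 ± 4.67 CPM without dox (SD, n = 4 each); neither passed edgeR's test (adjusted p = 0.0910 and 0.560).

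In shScramble cells the same exact permutation tests found no difference with dox. PSMB8 over PSMB5 had a log2 ratio of -0.46 ± 0.277 with dox, against -0.55 ± 0.254 without dox (adjusted p = 0.617), PSMB9 over PSMB6 had -2.36 ± 0.409 against -2.37 ± 0.431 (adjusted p = 0.943), and the heavy chains over B2M had 0.47 ± 0.0758 against 0.31 ± 0.212 (adjusted p = 0.305; SD, n = 4 each). Between the lines, shAKAP2 minus shScramble, all ratios were lower with dox, with differences of -0.70, -1.54 and -0.31 in the same order, and without dox the immunoproteasome ratios were lower, with differences of -0.30 and -1.06, each with an adjusted p = 0.0429 by the exact permutation test. Without dox the heavy chain ratio differed by 0.01 (adjusted p = 0.943). Without dox PSMB5 itself was lower in shAKAP2 than in shScramble cells (log2 fold change -0.26, adjusted p = 0.0293). Without the replicate 1 libraries the ratio differences were -0.56, -1.34 and -0.32 with dox and -0.18, -0.87 and 0.10 without dox. In shScramble replicate 1 PSMB8 over PSMB5 stood at -0.05 with dox and -0.17 without, well above the other shScramble libraries at -0.71 to -0.54.

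**Figure D3:**
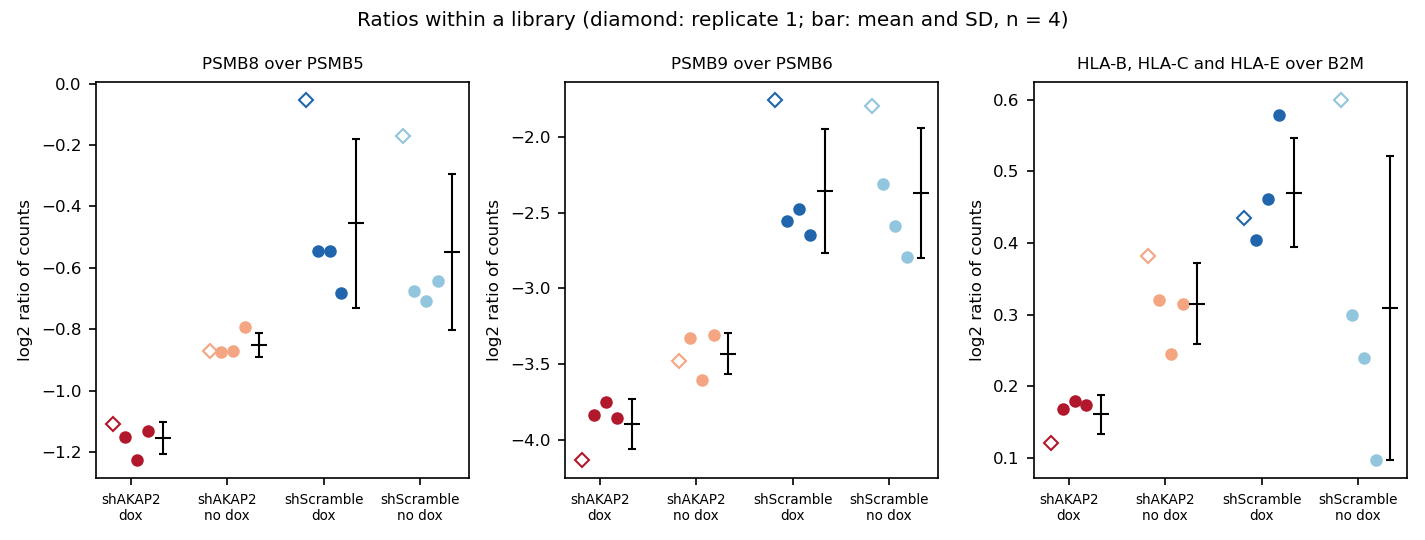
Log2 ratio of counts within each library (vertical axis) for PSMB8 over PSMB5, PSMB9 over PSMB6 and the summed heavy chains over B2M in the 4 groups; points are libraries, diamonds replicate 1, and bars the mean and SD of 4 libraries. Induced shAKAP2 libraries lie below the uninduced ones in all 3 ratios, for PSMB9 over PSMB6 at -4.14 to -3.75 against -3.60 to -3.31.

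The 9 genes did not all follow their mean profile across the libraries equally closely. Each gene's log2 level was centred over the 16 libraries and set against the members' mean profile. PSMB8 and TAP1 followed it most closely, with a root-mean-square difference of 0.094 each, then HLA-E at 0.108, B2M at 0.130 and HLA-C at 0.160. HLA-B at 0.267, NLRC5 at 0.277, PSMB9 at 0.318 and TAP2 at 0.495 lay farther off. The measure counts the size of steps between libraries as well as their shape. By group means HLA-B and PSMB9 kept the order of the mean profile, lowest in induced shAKAP2, then uninduced shAKAP2, and highest in shScramble cells with dox. Among 9027 other genes of at least 10 CPM, those nearest to the mean profile were PTTG1IP (0.081), NUCB1 (0.083), CHURC1 (0.098), GALNT18 (0.0999) and ADAM8 (0.102), over 16 libraries of 4 groups. The likeness is a description, and it includes the high levels of shScramble replicate 1: PTTG1IP averaged 479.5 ± 22.8 CPM in shAKAP2 cells with dox, 577 ± 15.7 without dox, 798 ± 150.4 in shScramble cells with dox and 679.7 ± 109 without dox.

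Beyond the 9, 12 lists of 89 genes of the pathway and its control were followed, of which 85 were tested. In the shAKAP2 line 16 of the 85 were called higher with dox and 11 lower, beside 13.1% and 15.2% of all tested genes, and for the interaction 9 higher and 9 lower, beside 7.53% and 10.5%. Between the lines 24 were higher and 21 lower with dox, beside 18.7% and 21.5%, and 8 higher and 12 lower without it, beside 8.65% and 9.31%. Whether these counts differ from those of genes in general was not tested. For dox in shScramble cells edgeR and limma-voom called none of the 85, DESeq2 called 1, of the type I interferon receptor list, and 9 had an unadjusted p under 0.05 in edgeR. PSMB10, the remaining catalytic subunit of the immunoproteasome, had 5.97, 5.17, 6.35 and 6.48 CPM in shAKAP2 cells with dox, against 9.91, 13.1, 13.1 and 11.5 CPM without dox (log2 fold change -0.99, SE 0.128, adjusted p = 5.97e-06). The activator subunits PSME1 and PSME2 had -0.10 each (adjusted p = 0.617 and 0.316). None of the 3 constitutive catalytic subunits passed, and of the 11 other 20S subunits PSMB2 (0.43) and PSMA3 (0.19) were called higher and none lower. The PSMA3 call was lost in 7 of 8 fits that left out 1 library and with no filter on low counts (adjusted p = 0.114).

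Of 9 factors that act at the SXY module, 3 fell with dox in the shAKAP2 line and none rose. Of all tested genes 15.2% were called lower there and 13.1% higher, and whether the list differs from them was not tested. CIITA, the class II transactivator, had 1.44, 1.14, 1.62 and 2.20 CPM with dox, against 6.24, 6.84, 6.70 and 6.93 CPM without dox (log2 fold change -2.06, SE 0.293, adjusted p = 2.88e-05). RFX5, a DNA-binding subunit of the RFX complex, had 60.8, 56.1, 58.8 and 62.7 CPM with dox, against 84.6, 79.0, 89.0 and 87.3 CPM without dox (log2 fold change -0.51, adjusted p = 3.81e-06). NFYA, a subunit of NF-Y, fell by 0.41 on the log2 scale (adjusted p = 0.000442). All 3 also passed as an interaction, at -2.11, -0.46 and -0.58, beside 10.5% of all tested genes called lower. RFXAP, RFXANK, NFYB, NFYC, CREB1 and ATF1 did not pass in the shAKAP2 line.

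Of 13 genes of interferon-gamma signalling, 3 were higher and 2 lower with dox in the shAKAP2 line, beside a list median of 0.04. The shares over all tested genes were 13.1% and 15.2%. IRF1, a transcription factor induced by interferon that acts on class I and immunoproteasome genes, had 22.4, 22.8, 19.4 and 19.2 CPM with dox, against 37.7, 37.6, 39.7 and 36.5 CPM without dox (log2 fold change -0.85, SE 0.105, adjusted p = 3.20e-06). In shScramble cells IRF1 had 62.3, 60.3, 60.8 and 64.1 CPM with dox, against 69.8, 57.5, 48.9 and 46.1 CPM without dox (log2 fold change 0.15, adjusted p = 0.720). As for PSMB9, induced shAKAP2 libraries lie below uninduced ones and these below shScramble libraries, and the IRF1 interaction was -1.01 (adjusted p = 5.02e-05). SOCS1, a feedback inhibitor singled out after its values were seen, was lower (-0.84, adjusted p = 0.0339) from 68 counts over the induced and 139 over the uninduced libraries. IRF2, which can oppose IRF1, was higher (0.43), as were the phosphatase gene PTPN2 (0.43) and STAT3 (0.22), whose call was lost in 2 of 8 fits that left out 1 library and with no filter on low counts (adjusted p = 0.0551). Of the NF-kB list NFKB2 was higher (0.36), and IKBKB (-0.50) and REL (-0.56) were lower, of 7. The REL call was lost in 6 of 8 fits that left out 1 library, with limma-voom (adjusted p = 0.0625) and with a replicate block (adjusted p = 0.0512). Of the type I interferon receptor list IFNAR1 was higher (0.25), of 3.

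In peptide trimming and loading, ERAP2, an aminopeptidase of the endoplasmic reticulum, fell when shAKAP2 cells received dox (change -0.75 on the log2 scale, SE 0.161, adjusted p = 0.00136), as did the cytosolic peptidase gene TPP2 (-0.41, adjusted p = 0.00565), while ERAP1 had 0.22 (adjusted p = 0.0350). The ERAP1 call was lost in 6 of 8 fits that left out 1 library and with no filter on low counts (adjusted p = 0.0743). Of the 7 loading complex genes UGGT1, which checks the folding of the complex, was lower (-0.41, adjusted p = 0.00628) and the others, TAPBP, TAPBPL, CALR, CANX, PDIA3 and HSPA5, were not called.

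Genes that act on class I or on the cells that read it were in part called higher with dox in the shAKAP2 line. Of all tested genes 13.1% were called higher there and 15.2% lower, and whether these lists differ from them was not tested. Of 10 tested class I-like chains, MICB, a stress ligand of the NK cell receptor NKG2D, had 172, 168, 170.4 and 162 CPM in shAKAP2 cells with dox, against 82.8, 84.2, 83.8 and 87.5 CPM without dox (log2 fold change 0.99, SE 0.0554, adjusted p = 4.16e-11). In shScramble cells MICB stayed at 76.5 to 81.2 CPM with dox, against 81.2 to 89.3 CPM without dox. The NKG2D ligands MICA (0.55, adjusted p = 0.00351) and ULBP2 (0.60, adjusted p = 0.000456) rose as well, and none of the 10 was called lower. HFE, a class I-like chain of iron control singled out after its values were seen, averaged 23.6 ± 1.91 CPM with dox and 34.1 ± 4.11 CPM without dox (SD, n = 4 each), with no overlap and an adjusted p = 0.0789. MR1, of the same list, went the other way, at 12.6 ± 1.31 CPM with dox and 7.43 ± 1.12 CPM without dox. Its groups did not overlap either, and it was not called. Of 9 negative regulators of class I, MARCH4, a membrane-bound ubiquitin ligase (2.03, adjusted p = 1.19e-05), SUSD6 (0.45, adjusted p = 0.0159) and IRGQ (0.37, adjusted p = 0.0206) were called higher and none lower. Leaving out 1 library ended the SUSD6 call in 4 of 8 fits and the IRGQ call in 3 of 8. CD274, the gene of the checkpoint ligand PD-L1, had 70.1, 65.7, 70.1 and 66.7 CPM with dox, against 34.4, 36.4, 39.2 and 29.9 CPM without dox (log2 fold change 0.96, SE 0.136, adjusted p = 2.13e-05), and PDCD1LG2 was higher by 0.84. MICB, ULBP2, MARCH4, SUSD6 and CD274 also passed as interactions, at 1.09, 0.57, 1.48, 0.68 and 1.13.

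**Figure D4:**
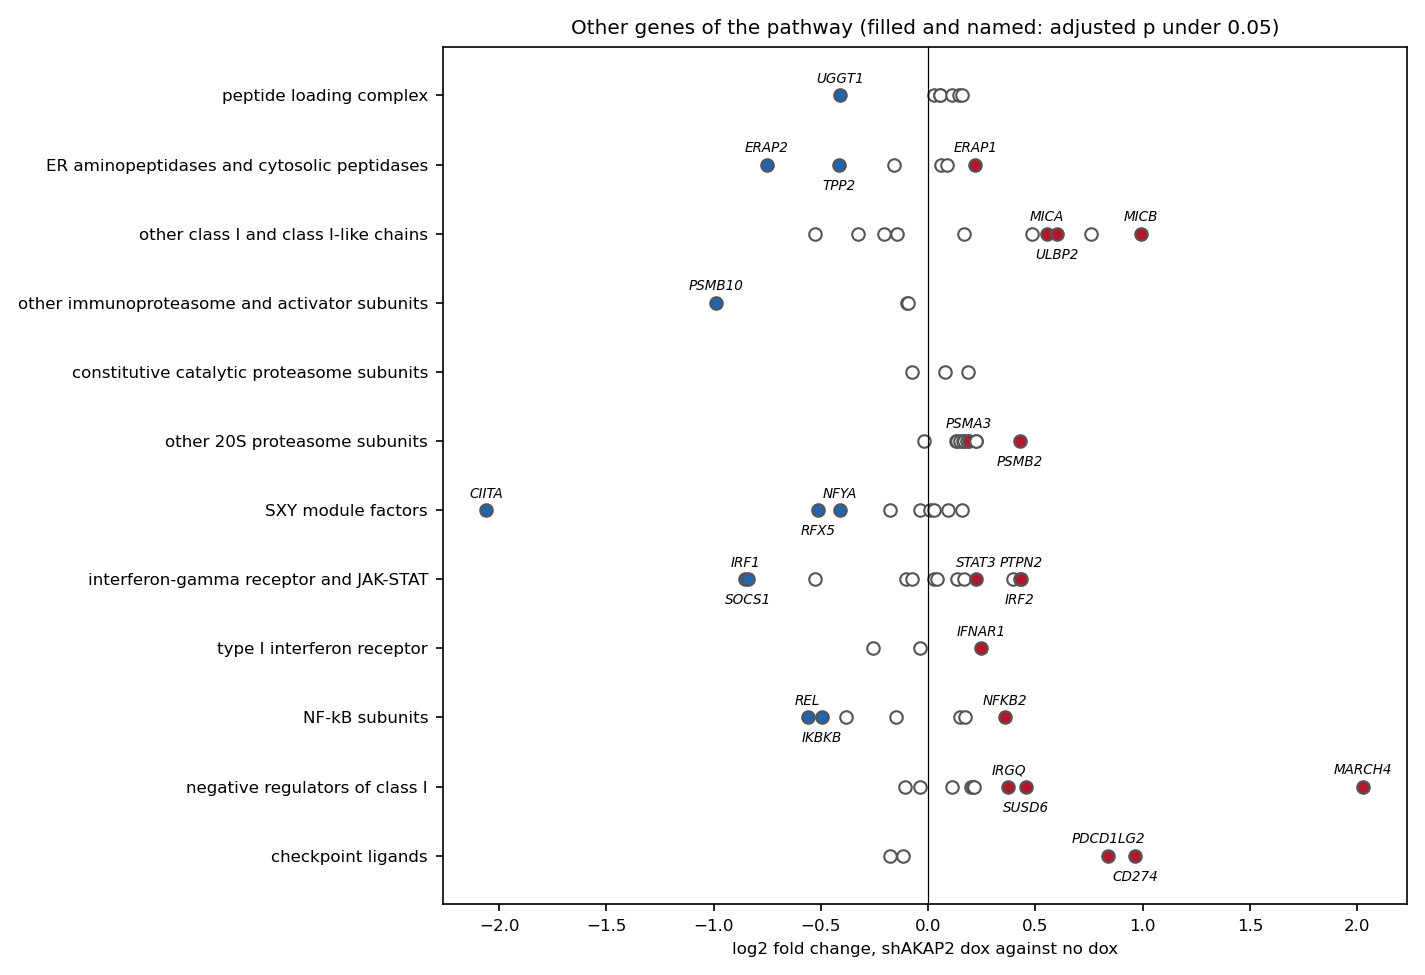
Log2 fold change for dox against no dox in the shAKAP2 line (horizontal axis) of each tested gene of the 12 lists (rows); filled and named points have an adjusted p under 0.05, red higher and blue lower. CIITA at -2.06 and MARCH4 at 2.03 lie at the ends, with 16 genes higher and 11 lower.

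Counts of several members can hold reads of a neighbour, since no use of strand is stated and reads of a gene and its antisense partner then cannot be told apart. PSMB8-AS1 overlaps 9.5% of the exonic bases of TAP1, 20.6% of those of PSMB8 and 5.7% of those of PSMB9, with 4086 counts of its own over all libraries, and PSMB8 and PSMB9 share 139 bases. HLA-B and HLA-C share 35 exonic bases and HLA-B shares 17.8% of its bases with AL671883.2, which had 295 counts. TAP2 shares 32.3% with AL669918.1, which had 65 counts.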

How the data were processed

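Polyadenylated RNA was sequenced from 16 libraries in 4 groups of 4. The deposited table holds raw counts of reads per gene for 57500 genes, of which 26937 had no count, and columns were tied to samples by the names in the labels. Per the submitters' processing notes, the authors used STAR 2.5.2b, featureCounts and Subread 1.5.2 with GRCh38; annotation release, read filters and use of strand are not named there. Total counts ran from 24482997 to 37472525 per library, and low genes such as PSMB9 carry more counting error.

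Counts were analysed with edgeR 4.0.16 in R 4.3.3: filterByExpr, TMM scaling and the robust quasi-likelihood test on group means of all 16 libraries (12 residual degrees of freedom), with Benjamini-Hochberg adjustment over 15566 genes and a threshold of 0.05. The contrasts were dox against no dox in each line, their interaction, and shAKAP2 against shScramble with and without dox. Log2 ratios within libraries, with a prior count of 0.5, were compared by two-sided exact permutation tests. Gene positions come from GENCODE, with 56898 of 57500 identifiers matched, and promoter sequences from RefSeq. Alternatives were DESeq2 1.42.0, limma-voom (limma 3.58.1), median-of-ratios scaling, no filter, a replicate block, fits of the compared groups only, and leaving out libraries. The edgeR test for dox against no dox in the shAKAP2 line was tried on simulated counts with known changes, and the other tests were not.

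The members and lists were chosen with earlier results of these data known. All 9 members were named in each comparison, with up to 4 genes per list by smallest p, AKAP2, and the 5 genes nearest to the members' mean profile, computed on log2 CPM with a prior count of 2. Other genes were named after their values were seen.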

Additional observations from a re-analysis of the deposited data

Results flagged for a closer look

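In groups of 4 libraries, 1 value can stand far from the others. For HLA-B the library shAKAP2 with dox, replicate 1, was low at 328 CPM, and the same library was low for PSMB8 at 52.9 CPM. For HLA-E the library shScramble without dox, replicate 1, was high at 525 CPM, and the same library was high for the log2 ratio of PSMB8 over PSMB5 at -0.17. That ratio was also high in shAKAP2 without dox, replicate 4, at -0.79. These are 5 of 48 groups examined, where chance gives about 1 in 20.

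The effect of dox differed between the lines for 19 of the 9 members and 85 tested list genes, by edgeR's test of the interaction (shAKAP2 minus shScramble, log2 scale). Of all tested genes 7.53% were called higher and 10.5% lower in that test. Whether the count of 19 differs from that of genes in general was not tested. Among the members the effect differed for NLRC5, at -0.58. Among genes of the lists the difference was below 0 for CIITA (-2.11), PSMB10 (-1.11), IRF1 (-1.01), ERAP2 (-0.84), NFYA (-0.58), IKBKB (-0.53), UGGT1 (-0.49), TPP2 (-0.46) and RFX5 (-0.46). It was above 0 for MARCH4 (1.48), CD274 (1.13), ULBP3 (1.12), MICB (1.09), SUSD6 (0.68), ULBP2 (0.57), PTPN2 (0.41), PSMB2 (0.41) and PSMB4 (0.30). AKAP2 itself had -5.65, and PTTG1IP and GALNT18, chosen for a profile like that of the members, had -0.50 and -0.46. The calls of TPP2, UGGT1, ULBP3 and PSMB4 were lost when single libraries were left out.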

How the results depend on the processing

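Of 45 results for members, DESeq2, median-of-ratios scaling and no filter on low counts kept all 45 in direction and side of the threshold, and limma-voom kept 44, with PSMB9 for dox in shScramble cells at -0.027. With only the groups compared in the fit, 5 members were lower for dox in shAKAP2 cells, 37 genes in all were called for dox in shScramble cells, and B2M without dox passed (adjusted p = 0.0223). DESeq2 called 300 genes for dox in shScramble cells, against 168 by edgeR. Without both shScramble replicate 1 libraries, dox in shScramble cells gave 1002 genes and 1 member higher, with PSMB8 at -0.038 and PSMB9 at -0.071; the interaction gave 4823 genes and 5 members lower; 6 members were lower without dox, with NLRC5 at -0.017; and TAP2 with dox stood at -6.36e-06.

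Replicate numbers are shared between groups. Of 8 same-numbered pairs 2 had deviations that correlated above 0.1 (r from -0.018 to 0.40), namely shScramble replicates 1 (0.40) and 3 (0.20). Whether the numbers pair the libraries is not settled by these values, and the main fit did not pair them. With a replicate block 4543, 173, 2914, 6329 and 2869 genes were called for dox in shAKAP2 cells, dox in shScramble cells, the interaction, and shAKAP2 against shScramble with and without dox; members lower stayed at 2, 0, 1, 8 and 3, and NLRC5 without dox stood at -0.00039.

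Leaving out each library in turn gave 3595 to 4028 genes called for dox in shAKAP2 cells, 101 to 409 for dox in shScramble cells, 2249 to 3622 for the interaction, 5547 to 6053 between the lines with dox and 1669 to 2592 without dox. Members lower ranged from 1 to 3 for the interaction and otherwise stayed at 2, 0, 8 and 3. For dox in shAKAP2 cells TAP1 ranged from -0.039 to 0.0090 and TAP2 from -0.051 to 0.013. For dox in shScramble cells HLA-B ranged from -0.0079 to 0.67, HLA-C from -0.019 to 0.54, HLA-E from -0.17 to 0.31, B2M from -0.16 to 0.31, TAP1 from -0.045 to 0.20, TAP2 from -0.071 to 0.15, PSMB8 from -0.093 to 0.13 and PSMB9 from -0.17 to 0.11. For the interaction B2M ranged from -0.39 to 0.084, TAP1 from -0.22 to 0.032 and TAP2 from -0.17 to 0.054. Between the lines without dox NLRC5 ranged from -0.065 to 0.064. Of the log2 ratios, PSMB8 over PSMB5 ranged from -0.041 to 0.22 and PSMB9 over PSMB6 from -0.19 to 0.20 for dox in shScramble cells, and the heavy chains over B2M from -0.064 to 0.10 between the lines without dox. The causes were not tested.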
